A study of Mus musculus with 8 samples.

Results

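The genes described here encode the proteasome and its regulators. They are the 48 genes of the deposited table, of 38163 in all, whose symbol is Psm with a letter from a to g and a number. By role they are 7 constitutive alpha and 7 constitutive beta subunits of the 20S core, the germ cell subunit Psma8, the immune subunits Psmb8, Psmb9 and Psmb10, and the thymic subunit Psmb11. The rest are 6 ATPases and 11 other subunits of the 19S cap, 3 chaperones of cap assembly, 4 activators (Psme1 to Psme4), the regulator PI31 (Psmf1) and 4 chaperones of core assembly. Whole testes of mice were profiled by RNA-seq in 4 groups of 2 libraries: Alkbh5-/- (KO) and wild type (WT) at postnatal day 18 (P18), and KO and WT at postnatal day 12 (P12). ALKBH5 removes the N6-methyladenosine mark from RNA, and the series asks what it does in spermatogenesis. Per the series' design text, most spermatocytes are in leptotene or zygotene at P12 and in pachytene or diplotene at P18. The labels give neither the mouse strain, nor how the null allele was made, nor whether the 2 libraries of each group were made from different mice, and p-values therefore measure only the spread between these libraries.

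The proteasome is a barrel-shaped protease that degrades ubiquitin-tagged proteins. Rings of alpha subunits gate the barrel, rings of beta subunits hold its catalytic sites, and the cap binds ubiquitin chains and unfolds the substrate with its ATPases. In mouse germ cells the subunit made from Psma8 takes the place of that made from Psma7, and the activator PA200, made from Psme4, has a role in the removal of core histones in elongating spermatids. Interferon gamma induces Psmb8, Psmb9 and Psmb10, whose products replace those of Psmb5, Psmb6 and Psmb7, and the PA28 activator made from Psme1 and Psme2.

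RefSeq promoter windows of GRCm38.p6, from 250 bases before to 50 after the annotated start, were matched by symbol for 40 of the 48 genes. The 4 shown belong to genes with the larger differences among the P18 libraries described below: Psme4 (chr11:30771525-30771824, plus strand) and Psmd8 (chr7:29180624-29180923, minus strand) were high where Psma8 was high, and Psma7 (chr2:180042415-180042714, minus strand) and Psme1 (chr14:55578244-55578543, plus strand) were low there. Each reads 5′ to 3′ along the gene's strand, and capitals mark a match to 1 of 3 motifs.
Psme4: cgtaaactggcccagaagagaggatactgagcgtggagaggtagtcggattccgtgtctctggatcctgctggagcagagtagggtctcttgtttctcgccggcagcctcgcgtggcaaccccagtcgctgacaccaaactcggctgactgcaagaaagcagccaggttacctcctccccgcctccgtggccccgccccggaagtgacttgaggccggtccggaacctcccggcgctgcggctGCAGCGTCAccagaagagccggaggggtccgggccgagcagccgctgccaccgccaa
Psmd8: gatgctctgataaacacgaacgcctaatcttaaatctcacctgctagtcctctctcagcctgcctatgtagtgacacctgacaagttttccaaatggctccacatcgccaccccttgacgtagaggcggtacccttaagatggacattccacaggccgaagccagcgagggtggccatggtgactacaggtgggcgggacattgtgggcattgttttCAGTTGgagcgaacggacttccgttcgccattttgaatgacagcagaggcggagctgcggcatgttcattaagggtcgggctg
Psma7: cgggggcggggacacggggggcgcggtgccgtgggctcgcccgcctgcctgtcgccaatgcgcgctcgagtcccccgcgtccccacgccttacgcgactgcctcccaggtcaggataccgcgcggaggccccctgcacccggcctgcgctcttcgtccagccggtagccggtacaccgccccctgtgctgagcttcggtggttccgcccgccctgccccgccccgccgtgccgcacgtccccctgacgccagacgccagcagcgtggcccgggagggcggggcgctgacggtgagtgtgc
Psme1: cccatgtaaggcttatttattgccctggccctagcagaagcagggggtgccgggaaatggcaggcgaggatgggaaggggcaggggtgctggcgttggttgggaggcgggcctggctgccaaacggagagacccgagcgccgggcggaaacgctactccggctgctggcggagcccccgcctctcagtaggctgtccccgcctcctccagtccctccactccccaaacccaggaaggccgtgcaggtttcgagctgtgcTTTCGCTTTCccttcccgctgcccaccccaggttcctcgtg
The motifs were searched on both strands, and no matches overlapped in the windows of the 40 genes. Shares are of genes, each counted if any of its windows held a match, and 3 of the 40 had over 1 start. TGACNNNGC, the core of the antioxidant response element bound by NRF1 and NRF2, was found for 6 of 40 proteasome genes (15.0%) and for 14.0% of all 27025 genes. In Psme4 it lay on the minus strand at position -7, counted from the start. CAACTG, a motif recognised by MYB factors, was found for 6 of 40 (15.0%) and for 15.4% of all genes. In Psmd8 it lay on the minus strand at position -33. The interferon-stimulated response element was searched as GAAA, any 2 bases and GAAA. It was found for 5 of 40 (12.5%) and for 3.99% of all genes. The 5 were Psmb3, Psmd4, Psmd9, Psmg4 and Psme1, where it lay on the minus strand at position 10. Of these, only Psme1 is among the genes named above as induced by interferon gamma. The Psma7 window held none of these letters. Positions are counted from RefSeq starts, which can differ from the bounds of the deposited gene. The Psme1 window begins at 55578244, inside the deposited gene (from 55578123). That of Psma7 begins at 180042415, outside the deposited gene (to 180042410).

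Alkbh5 transcript was high in WT and near 0 in KO libraries at P12, as the labels say, but at P18 KO replicate 1 held it and WT replicate 1 lacked it. In KO P18 libraries there were 17.9 FPKM (replicate 1) and 0.155 FPKM (replicate 2), in WT P18 libraries 0.00985 FPKM (replicate 1) and 9.07 FPKM (replicate 2), in KO P12 libraries 0.0564 and 0.0218 FPKM, and in WT P12 libraries 10.2 and 17.8 FPKM. FPKM is a fragment count scaled by transcript length and library depth. The summed FPKM of 20 marker genes of pachytene and diplotene spermatocytes was 3300 and 260 in KO P18, 245 and 2430 in WT P18, 94.6 and 106 in KO P12, and 172 and 240 in WT P12. The sum of 12 Sertoli cell markers was 1050 and 2600 in KO P18, 2390 and 1300 in WT P18, 2490 and 2280 in KO P12, and 2230 and 1930 in WT P12. The sum of 12 hepatocyte markers was 238 and 244 in KO P18, 13.3 and 6.99 in WT P18, and 8.15 to 11.8 at P12. No marker of these lists was at 0 in all 8 libraries. Directions at P18 are therefore those of labels that the Alkbh5 level contradicts in KO replicate 1 and WT replicate 1, and each P18 library is described by itself. Throughout, KO P18 and WT P18 stand for the libraries so labelled. Total counts lay between 58417668 and 71537841 per library.

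The 48 genes together took 0.589% to 0.683% of all FPKM in each library. The gene with the highest mean was Psmd2, a scaffold subunit of the cap, which had 126 to 160 FPKM in the 8 libraries. In the constitutive core, mean levels ran between 17.6 FPKM (Psma3) and 82.0 FPKM (Psma6) among alpha subunits, and between 27.3 FPKM (Psmb1) and 85.6 FPKM (Psmb2) among beta subunits. In the cap they ran between 21.9 FPKM (Psmc2) and 102 FPKM (Psmc3) among ATPases, and between 13.9 FPKM (Psmd11) and 142 FPKM (Psmd2) among the other subunits. Mean levels were Psmd9 (5.14 FPKM) to Psmd10 (14.8 FPKM) among chaperones of the cap, Psmg3 (3.84 FPKM) to Psmg1 (24.5 FPKM) among those of the core, and 5.43 FPKM for Psmf1. Among the 4 activators the highest mean was 45.8 FPKM (Psme3). Of the 48, 45 reached 1 FPKM in at least 2 libraries of every fit and were tested, while Psmb8, Psmb9 and Psmb11 were not.

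The germ cell subunit Psma8 (ENSMUSG00000036743, chromosome 18, 14706151 to 14762298 on GRCm38) had the widest range of log2 levels over the 8 libraries among the 45 tested genes. It had 79.1 and 16.8 FPKM in KO P18, 13.5 and 83.0 FPKM in WT P18, 5.13 and 6.14 FPKM in KO P12, and 9.48 and 15.3 FPKM in WT P12. Both KO P12 libraries lay below both WT P12 libraries, and KO P18 replicate 1 and WT P18 replicate 2 lay above the other 6. Psma7 (ENSMUSG00000027566, chromosome 2, 180036374 to 180042410) encodes the alpha subunit whose place Psma8 takes. It had 19.8 and 45.1 FPKM in KO P18, 47.3 and 31.8 FPKM in WT P18, 64.7 and 51.4 FPKM in KO P12, and 53.3 and 52.8 FPKM in WT P12. The 2 libraries with the most Psma8 were thus the 2 with the least Psma7.

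Psma8 made up 80.0% and 27.1% of the summed FPKM of Psma8 and Psma7 in KO P18, 22.3% and 72.3% in WT P18, 7.34% and 10.7% in KO P12, and 15.1% and 22.5% in WT P12. Among the 8 alpha subunit genes it ranked first by FPKM in KO P18 replicate 1 and WT P18 replicate 2, seventh in KO P18 replicate 2 and last in the other 5 libraries. Psma6 held the first rank in those 6. As a percent of the pachytene and diplotene marker sum, Psma8 was 2.40 and 6.47 in KO P18, 5.52 and 3.41 in WT P18, 5.42 and 5.77 in KO P12, and 5.51 and 6.39 in WT P12.

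**Figure D1:**
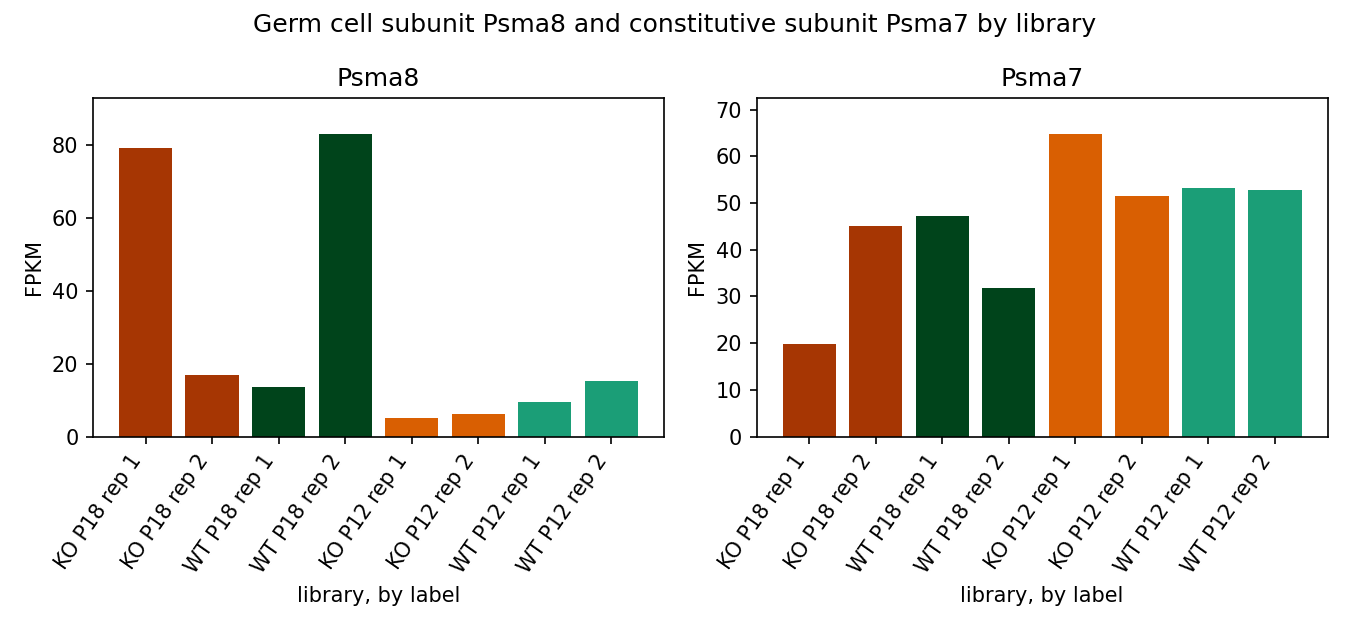
FPKM of the germ cell subunit Psma8 and the constitutive subunit Psma7 in each of the 8 libraries, named by their labels, with 1 bar per library. Psma8 was at 79.1 and 83.0 FPKM in KO P18 replicate 1 and WT P18 replicate 2 and at most 16.8 FPKM in the other 6, and Psma7 was lowest in the same pair of libraries.

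At P12, where the Alkbh5 level fits every label, the comparison of KO with WT testes asks how the loss of Alkbh5 bears on proteasome genes while spermatocytes are in early prophase. No member passed the test: 0 of 45 were called at an adjusted p under 0.05 (edgeR quasi-likelihood test, Benjamini-Hochberg over all genes), beside 0.426% of the 14802 genes tested, all 63 of them lower in KO. Psma8 was the member with the lowest p. Its log2 fold change of KO over WT was -1.14 ± 0.22 (SE, n = 2 libraries per group, adjusted p = 0.0883 by edgeR), and DESeq2 called it (-1.14 ± 0.20, adjusted p = 3.83e-06), where 3.94% of genes were called. Leaving out 1 library at a time gave -1.45 to -0.75, and of these 4 fits edgeR called it in the 1 without WT P12 replicate 1 (-1.45 ± 0.18, adjusted p = 0.00778, with 0.643% of genes called).

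Of 20 listed markers of pachytene and diplotene spermatocytes, 4 were called lower in KO at P12 and 0 higher, beside 0.426% of all genes called lower. They were Adam2 (-2.91 ± 0.33, adjusted p = 0.0329), Ybx2 (-1.65 ± 0.21, adjusted p = 0.0423), Tesmin (-1.51 ± 0.22, adjusted p = 0.0465) and Hspa2 (-1.01 ± 0.14, adjusted p = 0.0465), all by edgeR. Adam2 had 0.522 and 0.563 FPKM in KO and 2.83 and 5.39 FPKM in WT. It passed the filter through the WT libraries alone, so its direction follows from the filter. Ccna1, Pgk2, Acrv1, Spag6, Spata16 and Ldhal6b were under 1 FPKM in all P12 libraries and were not tested. Of 16 markers of leptotene and zygotene spermatocytes, Meiob (-1.38 ± 0.16, adjusted p = 0.0327) and Sycp2 (-0.80 ± 0.11, adjusted p = 0.0465) were called lower. The part of these markers in the Psma8 value was not tested, and in whole testis fewer cells of a type and less RNA per cell cannot be told apart.

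The PA28 alpha gene Psme1 (ENSMUSG00000022216, chromosome 14, 55578123 to 55581528) went the other way at P12. It had 40.0 and 36.5 FPKM in KO libraries and 29.5 and 28.9 FPKM in WT libraries, with no overlap. The log2 fold change was 0.39 ± 0.08 (adjusted p = 0.102 by edgeR), and DESeq2 called it (0.39 ± 0.10, adjusted p = 0.00659). Leaving out 1 library at a time gave 0.31 to 0.46, lowest without KO P12 replicate 1 and highest without KO P12 replicate 2. Its partner Psme2 had 30.2 and 28.2 FPKM in KO libraries and 27.3 and 27.8 FPKM in WT libraries (0.09 ± 0.09, adjusted p = 0.702 by edgeR). The summed FPKM of 13 interferon and antigen processing genes was 237 and 218 in KO libraries and 204 and 204 in WT libraries, and that of 10 macrophage markers was 78.5 and 45.5 in KO libraries and 57.8 and 69.5 in WT libraries. Their part in the Psme1 value was not tested.

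None of the other tested members was called at P12 by edgeR or DESeq2. After Psme1, the larger positive fold changes were those of the chaperone genes Psmg4 (0.33 ± 0.22) and Psmd10 (0.20 ± 0.13). Lowest in p after Psma8 and Psme1 were Psma5 (0.18 ± 0.07) and Psmd4, a ubiquitin receptor of the cap (0.18 ± 0.08), on the higher side, and Psme4 (-0.16 ± 0.07) and Psmd1, a scaffold subunit (-0.08 ± 0.07), on the lower side, with adjusted p-values of 0.345 to 0.671 (edgeR). The 31 constitutive subunits of core and cap lay between -0.08 and 0.18, with a median of 0.06, and the median of all genes tested was 0.01. Of these 31, 24 had a positive fold change, among them all 7 beta subunits. Without KO P12 replicate 1, 18 were above 0 and 13 below, and of the beta subunits 5 were above and 2 below. With any other P12 library left out, 23 to 26 of the 31 were above 0, among them all 7 beta subunits. The constitutive counterparts of the immune and germ cell subunits were at 0.14 ± 0.11 (Psma7), 0.17 ± 0.09 (Psmb5), 0.18 ± 0.08 (Psmb6) and 0.07 ± 0.07 (Psmb7), and Psme3 and Psmf1 were at -0.02 ± 0.10 and -0.06 ± 0.11.

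**Figure D2:**
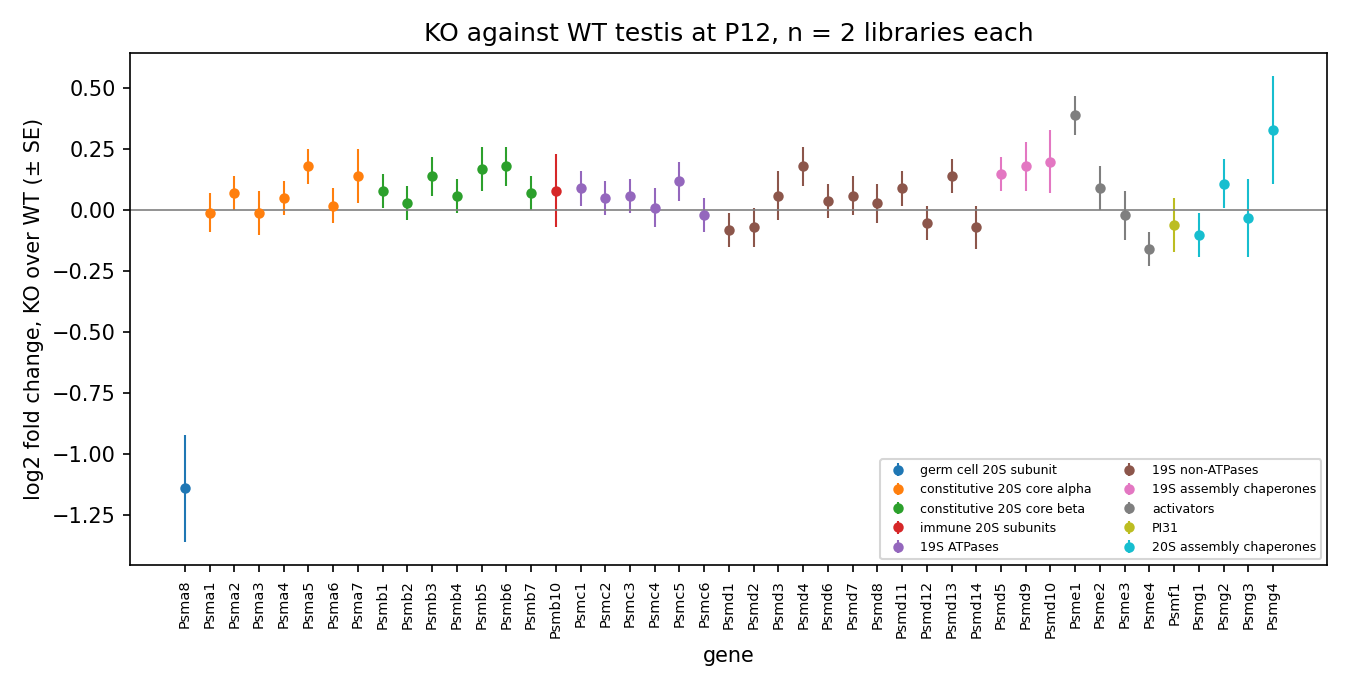
Log2 fold change of KO over WT testis at P12 for the 45 tested genes, from the edgeR fit of the 4 P12 libraries, with points for estimates, bars for their SE and colours for subunit groups. Psma8 stands at -1.14 and Psme1 at 0.39, and the constitutive subunits lie between -0.08 and 0.18.

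The comparison of P18 with P12 follows these genes as spermatocytes enter pachytene. With both P18 libraries of a label in the fit, 0 of 45 members were called in KO and 0 of 45 in WT, as 0.0% of genes were in either (1741 of 14938 genes in KO and 1265 of 14930 in WT had an unadjusted p under 0.05, and DESeq2 called 865 and 354, or 5.79% and 2.37%). Psma8 was at 3.46 ± 0.94 in KO (adjusted p = 0.398) and at 2.15 ± 0.98 in WT (adjusted p = 0.514, both edgeR), and DESeq2 called it in KO only (3.49, adjusted p = 0.000876 by DESeq2). The other members among the 3 with the lowest p in each direction were, in KO, Psme4 (1.35 ± 0.62), Psmd3 (0.50 ± 0.26), Psmb3 (-0.63 ± 0.22), Psmd5 (-0.62 ± 0.26) and Psmb1 (-0.47 ± 0.21). In WT they were Psme3 (0.33 ± 0.13), Psmd3 (0.40 ± 0.16), Psmb2 (-0.39 ± 0.14), Psmb1 (-0.30 ± 0.14) and Psmd5 (-0.32 ± 0.15). The libraries of each P18 group differed widely: the common dispersion, a squared coefficient of variation between libraries, was 0.138 in the KO fit and 0.1 in the WT fit, against 0.014 for the 4 P12 libraries.

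Each P18 library was therefore also set against the P12 pair of its label, with the other P18 library left out. In such a fit the spread comes from the P12 libraries and the lone P18 library is assumed to vary like them, so the p-values do not measure the spread between P18 testes. Fold changes here are on the TMM scale (trimmed mean of M-values), on which the median gene of each P18 library lay within 0.05 of the WT P12 mean on the log2 scale. On the FPKM scale that median was -0.43 in KO P18 replicate 1 and -0.21 in WT P18 replicate 2. FPKM differences of these libraries from P12 therefore lie lower than differences on the TMM scale.

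In KO P18 replicate 1, 13 members were called higher and 9 lower than in KO P12, 48.9% of the 45, and 57.5% of the 14293 genes tested were called. In WT P18 replicate 2, 20 were called higher and 7 lower than in WT P12, 60.0% of the 45, and 52.3% of 14578 genes were called. In KO P18 replicate 2 it was 1 higher and 2 lower (6.67%, beside 9.9% of 14379 genes), and in WT P18 replicate 1 it was 2 higher and 7 lower (9 of 45, beside 19.9% of 14564 genes). Of all genes, 29.9% were called higher and 27.6% lower in KO replicate 1, 28.1% and 24.3% in WT replicate 2, 5.86% and 4.05% in KO replicate 2, and 12.5% and 7.38% in WT replicate 1. The members' total share was below that of all genes in both KO libraries, above it in WT replicate 2 and level with it in WT replicate 1. By direction, the share called higher was above that of all genes in WT replicate 2 and below it in WT replicate 1, and for the share called lower it was the reverse. These shares are a description, and the differences between them were not tested.

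**Figure D3:**
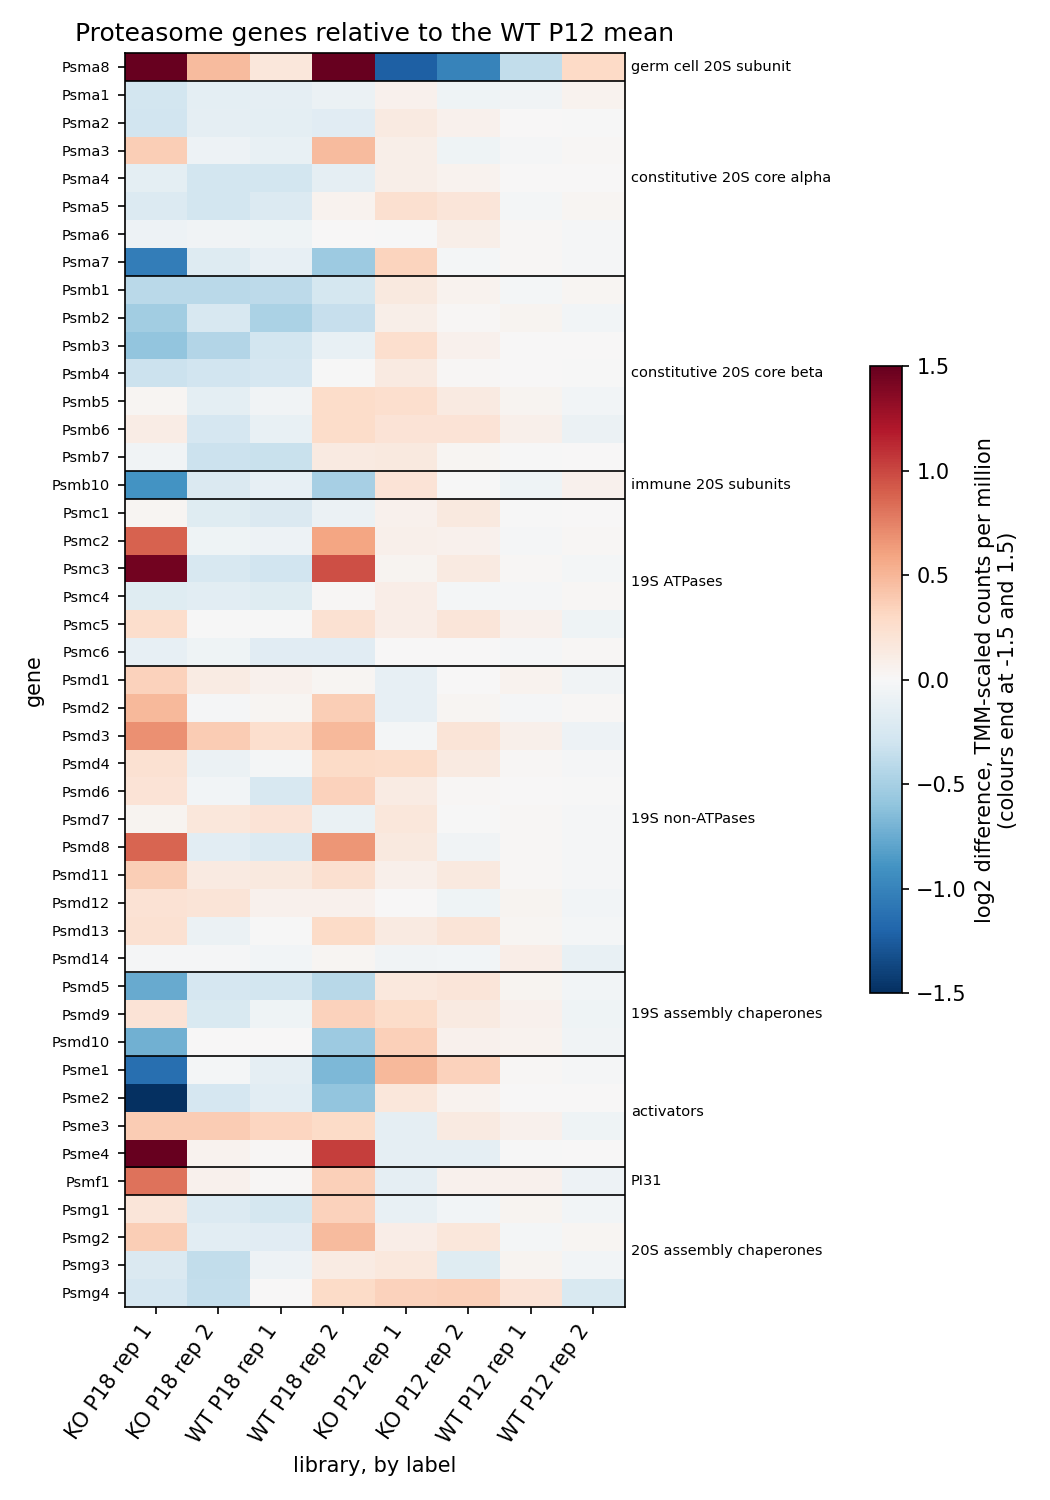
Log2 difference of each library from the mean of the WT P12 libraries, on TMM-scaled counts, for the 45 tested genes in rows by subunit group, with libraries in columns by label. Red is higher and blue lower, and colours end at -1.5 and 1.5, which Psma8 exceeds at 3.05 in KO P18 replicate 1 and 2.92 in WT P18 replicate 2, and Psme4 at 1.77 in KO P18 replicate 1.

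In the core, the alpha genes Psma8 and Psma7 moved in opposite directions in the 2 P18 libraries that stood apart. Psma8 was called higher in 3 of the 4 P18 libraries: by 4.27 ± 0.15 in KO P18 replicate 1 (adjusted p = 5.14e-08), by 1.60 ± 0.18 in KO P18 replicate 2 (adjusted p = 0.000445) and by 2.96 ± 0.25 in WT P18 replicate 2 (adjusted p = 0.000603, all edgeR). In WT P18 replicate 1 it was at 0.17 ± 0.25 (adjusted p = 0.657). The difference for KO replicate 2 is taken against KO P12 libraries, which held 5.13 and 6.14 FPKM, while its 16.8 FPKM lies near the 15.3 FPKM of WT P12 replicate 2. Psma7 was called lower in KO P18 replicate 1 (-1.08 ± 0.17, adjusted p = 0.000627) and WT P18 replicate 2 (-0.51 ± 0.06, adjusted p = 0.00194).

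Of the other 6 constitutive alpha genes, Psma3 was called higher in KO P18 replicate 1 (0.47 ± 0.14, adjusted p = 0.0161) and in WT P18 replicate 2 (0.52 ± 0.08, adjusted p = 0.00362, both edgeR), and Psma4 lower in WT P18 replicate 1 (-0.28 ± 0.06, adjusted p = 0.0239). Among the beta genes without a catalytic site in their product, Psmb1 was called lower in all 4 P18 libraries, with log2 fold changes of -0.39 and -0.50 in KO and -0.39 and -0.22 in WT. Psmb2 was called lower in 3 of them, all but KO replicate 2, and Psmb3 in 3, all but WT replicate 2. Of the genes for catalytic subunits, Psmb5 (0.32 ± 0.08, adjusted p = 0.0237) and Psmb6 (0.31 ± 0.09, adjusted p = 0.031) were called higher in WT P18 replicate 2, and Psmb7 lower in WT P18 replicate 1 (-0.33 ± 0.06, adjusted p = 0.0155, all edgeR). Summed over the 7 constitutive alpha genes, the level was 220 and 293 FPKM in KO P18, 296 and 283 FPKM in WT P18, 362 and 348 FPKM in KO P12, and 335 and 342 FPKM in WT P12.

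Among constitutive subunits, the larger rises were in the cap. Psmc3 (ENSMUSG00000002102, chromosome 2, 91054009 to 91066369), an ATPase of the ring that threads substrates into the core, had 180 and 70.6 FPKM in KO P18, 68.0 and 148 FPKM in WT P18, 85.7 and 93.2 FPKM in KO P12, and 86.8 and 85.1 FPKM in WT P12. It was above the P12 range in KO replicate 1 and WT replicate 2 and below it in the other pair of P18 libraries. The log2 fold change was 1.47 ± 0.13 in KO P18 replicate 1 (adjusted p = 1.98e-05) and 1.01 ± 0.06 in WT P18 replicate 2 (adjusted p = 0.000186). It was -0.31 ± 0.13 in KO P18 replicate 2 (adjusted p = 0.156) and -0.29 ± 0.06 in WT P18 replicate 1 (adjusted p = 0.0187, all edgeR). Psmc3 overlaps Slc39a13 over 4579 bases on the opposite strand, and the sources used here do not state whether the counting used strand.

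The ratio of Psmc3 to the median FPKM of the other 5 ATPase genes was 5.06 and 1.55 in KO P18, 1.52 and 3.17 in WT P18, 1.57 and 1.85 in KO P12, and 1.69 and 1.60 in WT P12. Of those 5, Psmc2 was called higher in KO P18 replicate 1 (0.92 ± 0.13) and WT P18 replicate 2 (0.63 ± 0.07), Psmc5 in WT P18 replicate 2 (0.27 ± 0.08), and Psmc1, Psmc4 and Psmc6 in no P18 library.

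The 11 other cap genes are given first as log2 differences from the WT P12 mean on the TMM scale. They ran from -0.02 (Psmd14) to 0.87 (Psmd8) in KO P18 replicate 1, where the median gene was at -0.05. In WT P18 replicate 2 they ran from -0.10 (Psmd7) to 0.66 (Psmd8), where it was at -0.03. Psmd8 (ENSMUSG00000030591, chromosome 7, 29174188 to 29180673), a subunit of the cap's lid, had 61.8 and 38.0 FPKM in KO P18, 36.9 and 60.9 FPKM in WT P18, 47.4 and 41.7 FPKM in KO P12, and 44.0 and 43.7 FPKM in WT P12. Its log2 fold change was 0.94 ± 0.14 in KO P18 replicate 1 (adjusted p = 0.000411) and 0.70 ± 0.06 in WT P18 replicate 2 (adjusted p = 0.000557, both edgeR). Psmd2, Psmd3 and Psmd11 were also called higher in both of these libraries, Psmd1 and Psmd12 in KO replicate 1 and Psmd4, Psmd6 and Psmd13 in WT replicate 2. In the other pair of P18 libraries, Psmd7 in WT replicate 1 (0.22 ± 0.06, adjusted p = 0.0405 by edgeR) was the 1 gene of this group called. Psmd14, the enzyme of the cap that cuts ubiquitin chains from substrates, was called in no P18 library and had 23.7 to 33.4 FPKM.

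Of the chaperones that build the cap's base, Psmd5 and Psmd10 were called lower in KO P18 replicate 1 (-0.82 ± 0.14 and -0.83 ± 0.20) and in WT P18 replicate 2 (-0.38 ± 0.08 and -0.50 ± 0.13, adjusted p = 0.00107 to 0.0225 by edgeR). Psmd9 was called higher in WT P18 replicate 2 (0.38 ± 0.10, adjusted p = 0.0214). Of the chaperones of the core, Psmg1 (0.38 ± 0.09) and Psmg2 (0.52 ± 0.11) were called higher in WT P18 replicate 2 and none of the 4 in the other P18 libraries. The regulator gene Psmf1 was called higher in KO P18 replicate 1 (0.96 ± 0.16, adjusted p = 0.000813) and WT P18 replicate 2 (0.40 ± 0.10, adjusted p = 0.0226, both edgeR).

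**Figure D4:**
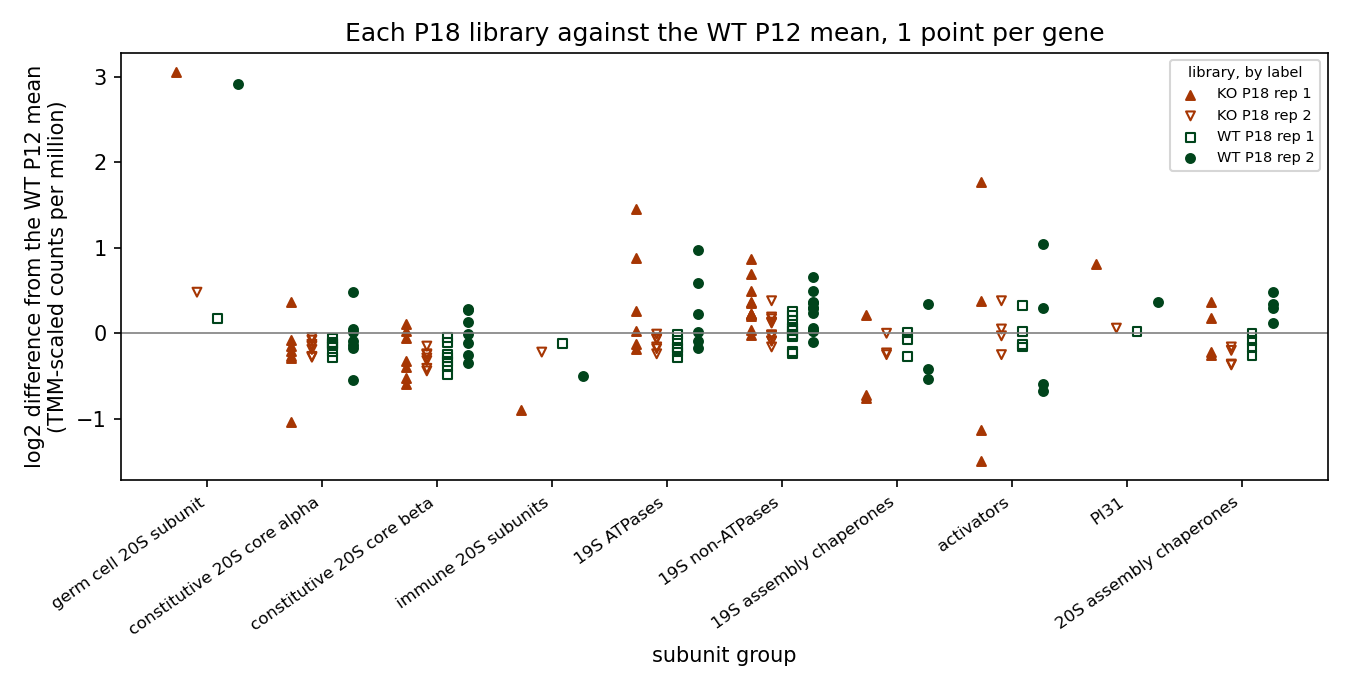
Log2 difference of each P18 library from the WT P12 mean on TMM-scaled counts, with 1 point per tested gene, subunit groups on the horizontal axis and markers by library. Filled markers are KO P18 replicate 1 and WT P18 replicate 2, the pair with 9.07 FPKM of Alkbh5 or more, and the 4 activators run between -1.49 and 1.77 in KO P18 replicate 1.

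The 4 activator genes parted. Psme4 (ENSMUSG00000040850, chromosome 11, 30771726 to 30880361), which encodes PA200, had 43.1 and 16.5 FPKM in KO P18, 16.2 and 29.7 FPKM in WT P18, 14.5 and 14.8 FPKM in KO P12, and 16.2 and 16.6 FPKM in WT P12. Its log2 fold change was 2.02 ± 0.13 in KO P18 replicate 1 (adjusted p = 1.69e-06) and 1.08 ± 0.06 in WT P18 replicate 2 (adjusted p = 0.000163). In KO P18 replicate 2 it was 0.20 ± 0.12 (adjusted p = 0.34) and in WT P18 replicate 1 it was 0.03 ± 0.06 (adjusted p = 0.793, all edgeR).

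Psme1 had 10.3 and 27.7 FPKM in KO P18 and 25.9 and 16.1 FPKM in WT P18, all below the 28.9 to 40.0 FPKM of the P12 libraries. It was called lower in KO P18 replicate 1 (-1.43 ± 0.15, adjusted p = 6.05e-05) and WT P18 replicate 2 (-0.63 ± 0.08, adjusted p = 0.0025), and the values of the other pair were -0.44 ± 0.14 in KO replicate 2 (adjusted p = 0.0738) and -0.13 ± 0.08 in WT replicate 1 (adjusted p = 0.308, all edgeR). Psme2 (ENSMUSG00000079197, chromosome 14, 55587441 to 55591113), the partner in the PA28 ring, had 7.50 and 22.4 FPKM in KO P18 and 23.9 and 16.1 FPKM in WT P18. It was called lower in the same libraries, KO P18 replicate 1 (-1.49 ± 0.17) and WT P18 replicate 2 (-0.55 ± 0.09). Its near copy Psme2b (99.4% identity) had up to 12.9 FPKM, so reads of these genes may be split. Psme3, which encodes the nuclear activator PA28 gamma, was called higher in KO P18 replicate 1 (0.49 ± 0.15), WT P18 replicate 1 (0.33 ± 0.07) and WT P18 replicate 2 (0.32 ± 0.08). The Sertoli marker sum was lowest, and the spermatocyte marker sum highest, in KO P18 replicate 1 and WT P18 replicate 2, and the part of either in these values was not tested.

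Of the immune subunits, Psmb8 and Psmb9 were scarce in every library. Psmb8 (ENSMUSG00000024338, chromosome 17, 34197721 to 34201454) had 0.631 and 0.948 FPKM in KO P18, 1.17 and 0.534 FPKM in WT P18, 0.385 and 0.356 FPKM in KO P12, and 0.372 and 0.613 FPKM in WT P12. It made up 0.614% to 2.30% of the summed FPKM of Psmb8 and Psmb5. Psmb9 (ENSMUSG00000096727, chromosome 17, 34181987 to 34187764) had 0.230 and 0.541 FPKM in KO P18, 0.734 and 0.283 FPKM in WT P18, 0.344 and 0.366 FPKM in KO P12, and 0.488 and 0.256 FPKM in WT P12, which was 0.513% to 1.56% of its sum with Psmb6. Both were highest in WT P18 replicate 1 and next highest in KO P18 replicate 2. The macrophage marker sum was 49.4 and 90.0 FPKM in KO P18 and 123 and 68.6 FPKM in WT P18, with the same order at the top, and its part was not tested. Psmb8 overlaps the antisense gene Gm20496 over 2139 bases and Psmb9 overlaps Tap1 over 212 bases on the opposite strand, so the limit given for Psmc3 holds for both.

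Without the filter on low values, the log2 difference of KO from WT at P12 was -0.40 ± 0.32 for Psmb8 and -0.08 ± 0.37 for Psmb9 (adjusted p = 0.67 and 0.969 by edgeR). The thymic subunit gene Psmb11, which is known from cortical thymic epithelium, had between 0 and 12 counts per library, the 0 in KO P18 replicate 1, where a count of 0 allows up to 3.

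Psmb10 (ENSMUSG00000031897, chromosome 8, 105935735 to 105938104) was the most abundant immune subunit gene. It had 2.89 and 5.88 FPKM in KO P18, 6.27 and 4.39 FPKM in WT P18, 7.89 and 6.93 FPKM in KO P12, and 6.67 and 7.44 FPKM in WT P12. Its share of the sum with Psmb7 was 9.12% and 16.4% in KO P18, 17.4% and 10.5% in WT P18, 15.8% and 15.1% in KO P12, and 14.9% and 15.9% in WT P12. It was called lower in KO P18 replicate 1 (-0.88 ± 0.24, adjusted p = 0.0119) and was at -0.46 ± 0.17 in WT P18 replicate 2 (adjusted p = 0.0742, both edgeR). At P12 the log2 fold change of Psmb10, KO over WT, was 0.08 ± 0.15. The antisense gene Gm16156 overlaps it over 2710 bases in GENCODE M21, so without a known use of strand the counts may hold reads of both.

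**Figure D5:**
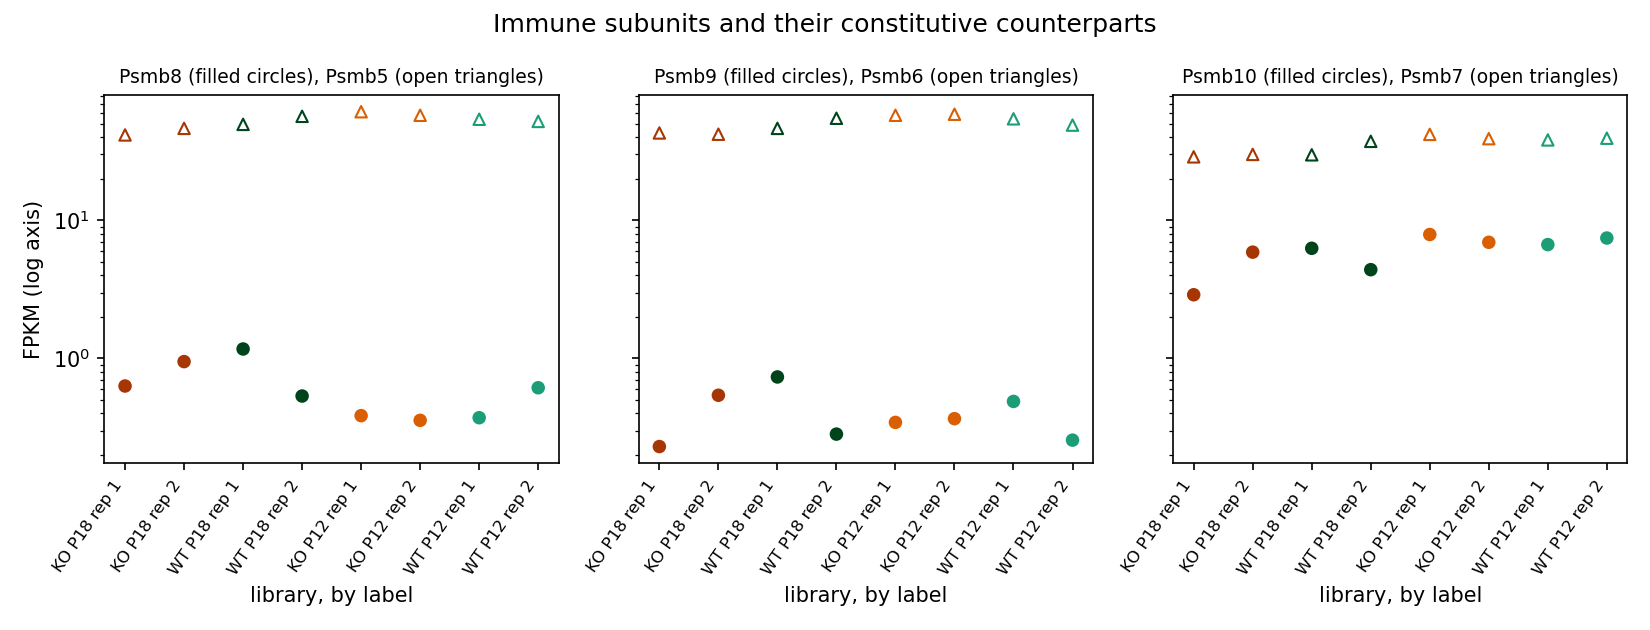
FPKM on a log axis of the immune subunits Psmb8, Psmb9 and Psmb10 (filled circles) and of their constitutive counterparts Psmb5, Psmb6 and Psmb7 (open triangles) in each library, by label. Psmb8 and Psmb9 stayed at or below 1.17 FPKM in all 8 libraries, while Psmb10 lay between 2.89 and 7.89 FPKM.

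The comparison of KO with WT at P18, as labelled, called 0 of 45 members, as it called 0.0% of 15843 genes (118 at an unadjusted p under 0.05 by edgeR, and 83 or 0.524% called by DESeq2, none of them a member). Every member had an adjusted p of 1. Psma8 was at 0.15 ± 1.31, Psme4 at 0.53 ± 0.74, Psmc3 at 0.36 ± 0.78, Psma7 at -0.23 ± 0.41, Psmb10 at -0.22 ± 0.42, Psme1 at -0.11 ± 0.50 and Psme2 at -0.39 ± 0.53. The common dispersion was 0.414. With KO replicate 1 and WT replicate 1 left out, whose Alkbh5 level contradicts the label, 1 P18 library of each label remained in a fit of 6 libraries whose spread comes from P12. There 1 member was called higher and 19 lower in KO P18, 44.4% of the 45, beside 35.2% of 15306 genes (14.4% higher and 20.8% lower).

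In that fit Psma8 was at -2.50 ± 0.31 (adjusted p = 0.00184), Psmc3 at -1.27 ± 0.10 (adjusted p = 0.000416), Psme4 at -1.05 ± 0.09 (adjusted p = 0.000526), Psmd8 at -0.88 ± 0.12 (adjusted p = 0.00283) and Psmc2 at -0.71 ± 0.09 (adjusted p = 0.00251, all edgeR). Psme1 was the 1 member higher (0.58 ± 0.12, adjusted p = 0.0131), and Psma7 (0.31 ± 0.16), Psme2 (0.27 ± 0.13) and Psmb10 (0.22 ± 0.22) were not called. The median of the 31 constitutive subunits was -0.24, and the median of all genes was 0.02. The remaining KO P18 and WT P18 libraries also differed in marker sums. That of pachytene and diplotene spermatocytes was 260 FPKM in KO and 2430 FPKM in WT. That of Sertoli cells was 2600 and 1300 FPKM, and that of hepatocytes 244 and 6.99 FPKM. The part of these in the values was not tested, and in this fit they cannot be told apart from the label.

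The interaction of genotype and age subtracts the change between P12 and P18 in WT testes from that in KO testes. It called 0 of 45 members and 0.0% of 16702 genes in all 8 libraries (160 genes at an unadjusted p under 0.05 by edgeR, and 45 or 0.269% called by DESeq2, none of them a member). Psmb3 (-0.48 ± 0.20) and Psmg4 (-0.81 ± 0.37) had the lowest p among members, with an adjusted p of 1. In the fit of 6 libraries, 0 members were called higher and 14 lower, 31.1% of the 45, beside 14.2% of 15306 genes (2.37% higher and 11.8% lower). Psmc3 (-1.35 ± 0.13, adjusted p = 0.00207), Psmd8 (-0.92 ± 0.15, adjusted p = 0.0105) and Psme4 (-0.91 ± 0.11, adjusted p = 0.00435) led them, and Psma8 was at -1.39 ± 0.36 (adjusted p = 0.0512, all edgeR). Each genotype rests on 1 P18 library there, and the marker sums given above differ between these libraries. The part of those sums was not tested. For age, the same fit called 1 member higher and 9 lower in KO, beside 12.6% of genes (7.88% higher and 4.68% lower), and 19 higher and 5 lower in WT, beside 42.7% of genes (25.1% higher and 17.5% lower).

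Other genes of the pathway, taken from a list of 33 in the table that match no Psm symbol, were read in the same fits. At P12, 0 of 33 were called, and the lowest p belonged to the ubiquitin-activating enzyme genes Uba1 (0.19 ± 0.08) and Uba6 (-0.19 ± 0.07), to the ubiquitin receptor gene Adrm1 (0.18 ± 0.08) and to the meiotic ligase gene Rnf212 (-0.45 ± 0.19). Ubqln1, which carries tagged proteins to the proteasome, was called higher in each P18 library by itself (0.55 ± 0.07 to 1.09 ± 0.14 by edgeR).

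With both P18 libraries of a label in the fit, Ubqln1 was not called (0.96 ± 0.23 in KO, adjusted p = 0.398, and 0.64 ± 0.14 in WT, adjusted p = 0.514, both by edgeR). Among those called higher in both KO P18 replicate 1 and WT P18 replicate 2 were Uchl5, a deubiquitinase of the cap (1.36 ± 0.16 and 0.62 ± 0.10), and Akirin2, which carries proteasomes into the nucleus (1.81 ± 0.15 and 0.82 ± 0.13). The factor gene Nfe2l2 was lower in the same libraries (-1.26 ± 0.15 and -0.82 ± 0.08). In KO P18 replicate 2 and WT P18 replicate 1, Nfe2l2 was at -0.30 ± 0.14 and -0.33 ± 0.07. There Uchl5 was at 0.07 ± 0.18 and -0.47 ± 0.12, and Akirin2 at 0.46 ± 0.17 and 0.28 ± 0.14. In KO P18 replicate 1, 15 of 33 were called higher and 4 lower, beside 29.9% and 27.6% of all genes. In WT P18 replicate 2 it was 13 and 8, beside 28.1% and 24.3%. In KO P18 replicate 2 it was 3 and 1, beside 5.86% and 4.05%, and in WT P18 replicate 1 it was 7 and 3, beside 12.5% and 7.38%.

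Of 13 interferon and antigen processing genes, 11 were tested at P12 and 0 called, beside 0.426% of all genes. In KO P18 replicate 1, 0 of 11 were called higher and 5 lower, beside 29.9% and 27.6% of all genes. Among those lower were Irf1, a factor that drives the immune subunit genes (-1.22 ± 0.19), and the receptor gene Ifngr2 (-1.18 ± 0.15). In WT P18 replicate 2, 1 of 10 was called higher and 5 lower, beside 28.1% and 24.3% of all genes, with Irf1 (-0.89 ± 0.11) and Ifngr2 (-0.75 ± 0.07) among those lower. In WT P18 replicate 1, 5 of 11 were called higher and 0 lower, beside 12.5% and 7.38% of all genes, including Irf8 (1.01 ± 0.17), Ifngr1 (0.78 ± 0.09) and B2m (0.62 ± 0.09). None of the 11 was called in KO P18 replicate 2, beside 9.9% of all genes.

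Some counts carry limits of their own. Of the 48 genes, 8 (Psma4, Psma5, Psmb3, Psmb5, Psmc1, Psmd2, Psmd11 and Psme2) have a copy elsewhere in the annotation with at least 95% identity over at least 50% of the transcript, so their values are uncertain where the counting could split reads. All 48 are in GENCODE M21, and 41 have the same start and end there.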

How the data were processed

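RNA-seq of whole testis was analysed in 8 libraries, 2 in each of 4 groups given by genotype and age in the labels. Per the labels' protocols, poly(A) RNA with an integrity number above 7.0 was sequenced from libraries with a dUTP-marked second strand. GRCm38, HISAT2 2.2.1, StringTie 2.1.6 and cutadapt 1.9 are named in the submitters' processing notes. The table deposited by the authors gives an FPKM and a raw count per gene and library. The tool that counted, and its use of strand, are not given in the sources used here.

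Counts were scaled by TMM and tested with edgeR 4.0.16 (R 4.3.3, quasi-likelihood F-test, two-sided), in fits of the groups compared only. The interaction was fitted in all 8 libraries. Genes with at least 1 FPKM in at least 2 libraries of a fit were tested. Benjamini-Hochberg adjustment ran over every gene in a fit, with calls under 0.05. SEs were derived as |log2 fold change| / sqrt(F). Alternatives were DESeq2 1.42.0, limma 3.58.1 on log2(FPKM + 1) and log2(FPKM + 0.1), DESeq2 size factors in edgeR, no filter beyond 1 count, 1 spread shared by all 8 libraries, the replicate number as a block, each library left out, and a fit of 6 libraries without the 2 whose Alkbh5 level contradicts the label. A pairing of the P18 libraries across numbers was added after seeing the data. Steps were tested on counts simulated with a single dispersion, near that of the P12 fit (0.014). It was below those of the fits with P18 libraries (0.1 to 0.414), so the simulation does not cover their spread. Near copies were sought with blastn 2.17.0 among GENCODE M21 transcripts, and promoter windows came from RefSeq.

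Genes named are Psma8, the immune and thymic subunits with their counterparts, the activators and Psmf1 throughout, members called (the 5 with the largest fold change in each direction where over 10 were called), the 3 in each direction with the lowest p where few were, and the highest and lowest of each subunit group. Others, such as Psmd1, Psmd7, Psmd14 and further members by subunit group, were named after their values were seen. The members, gene lists and comparisons were chosen with earlier results of these data known. Some genes of the pathway list are not reported here.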

Additional observations from a re-analysis of the deposited data

How the results depend on the processing

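The count of members called at P12 was 0 with edgeR, 2 with DESeq2 and 2 with the replicate number as a block (Psma8 and Psme1 in both, where 3.94% and 3.34% of genes were called), and 0 with limma, other size factors, no filter or 1 spread shared by all 8 libraries. Leaving out 1 library gave 0 to 1. For P18 against P12, leaving out 1 library gave 0 to 22 calls in KO and 0 to 27 in WT, and DESeq2 gave 1 call in KO, Psma8. The fit of 6 libraries gave 20 calls for KO against WT at P18, 10 and 24 for age in KO and WT, and 14 for the interaction.

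In that fit several directions of KO against WT at P18 turned: Psma8 -2.50, Psme4 -1.05, Psmf1 -0.36, Alkbh5 -6.03, Psma7 0.31, Psmb10 0.22, Psme1 0.58 and Psme2 0.27. For the interaction they were Psma8 -1.39, Psme4 -0.91, Psmf1 -0.32, Psma7 0.15, Psmb10 0.13, Psme1 0.17 and Psme2 0.17, and for age in WT Psmb7 0.19. By construction the fit drops the pair of libraries named. Near 0, limma turned Psme3 for KO against WT at P18 (-0.02 with both pseudocounts), and Psmb6 (-0.03 with both) and Psmb5 (-0.00013 and -0.00019) for age in WT. The shared spread turned Psme3 at P12 (0.01).

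Leaving out 1 library moved the log2 fold change of KO over WT at P12 between -0.05 and 0.29 for Psma7, -0.03 and 0.16 for Psmb10, -0.17 and 0.10 for Psme3, and -0.17 and 0.03 for Psmf1. At P18 the range was -1.69 to 2.17 for Psma8, -0.61 to 1.19 for Psme4, -0.17 to 0.58 for Psmf1, -0.75 to 0.11 for Psma7, -0.63 to 0.06 for Psmb10, -0.79 to 0.32 for Psme1, -1.17 to 0.08 for Psme2, -0.33 to 0.04 for Psmb5, -0.37 to 0.10 for Psmb6 and -0.30 to 0.20 for Psmb7. For age it was -0.05 to 0.32 for Psmb5, -0.11 to 0.31 for Psmb6 and -0.33 to 0.17 for Psmb7 in WT, and -0.44 to 0.03 for Psmb6 in KO. For the interaction it was -0.57 to 3.28 for Psma8, -0.47 to 1.33 for Psme4, -0.13 to 0.65 for Psmf1, -0.05 to 0.20 for Psme3 and -0.40 to 0.10 for Psmb7. The cause of these changes was not tested.

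Same-numbered libraries did not deviate together at P12 (r = -0.049 over genes) or with age in KO (-0.086). In WT with age r was 0.276, and at P18 it was -0.939, so the numbers are not taken as pairs. Pairing the P18 libraries across numbers called 0 members and 74 genes. The block called 0 members in the other 4 comparisons. Psmb11, with 0 to 12 counts per library, has too few for a firm statement at this depth, while Psmb8 (82 to 268 counts) and Psmb9 (62 to 182 counts) were left out by the minimum of 1 FPKM.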
